A study of Homo sapiens and Mus musculus with 6 samples.

Results

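The BCL2 family genes described here are BCL2, BCL2L1, BCL2A1, MCL1, BAX, BCL2L11, BBC3, PMAIP1, BIK and BMF, 10 genes whose promoter contacts were read from promoter Capture Hi-C (CHi-C) in 2 cell types. A call was kept when any of these symbols was attached, whatever its case, to the fragment at either end. This left 137 of 92929 calls in GM12878, naming 9 of the 10 genes, and 97 of 101841 calls in mouse embryonic stem cells (mESCs), naming 8 of them. CHi-C ligates nearby HindIII restriction fragments in fixed nuclei, pulls down those that hold promoters (the baits) and sequences what each was joined to (the other end). A pair is listed when its CHiCAGO score, a weighted minus-log p-value of the reads against a model of random collisions and technical noise, reaches 5. GM12878 is a human B-lymphoblastoid cell line, with 3 CHi-C libraries from cells grown in RPMI with 15% serum. The mESCs were J1 cells of strain 129S4/SvJae kept on irradiated fibroblast feeders that were removed by passaging before fixation, with 2 CHi-C libraries and 1 Hi-C library made without capture. No treatment was named for either, and both were fixed in 2% formaldehyde for 10 minutes. The libraries of each cell type had been pooled before calling, so no value below has a replicate spread, and cell type, species, capture design, depth and genome build cannot be told apart. The listed read counts, which are rounded combinations over libraries, summed to 1850002 over all GM12878 calls and 2010332 over all mESC calls. RNA was not measured, so the labelled cell types could not be checked against their markers.

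The BCL2 family sets whether a cell commits to mitochondrial apoptosis. BCL2, BCL2L1 (which encodes BCL-XL), BCL2A1 and MCL1 hold the effectors in check. BAX is an effector that perforates the outer mitochondrial membrane, and the BH3-only proteins encoded by BCL2L11 (BIM), BBC3 (PUMA), PMAIP1 (NOXA), BIK and BMF release or activate it. In B cells BCL2 is known as the gene placed under immunoglobulin enhancers in follicular lymphoma, and BCL2A1 as a target of NF-kappaB.

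BUB1B with BMF and COX4I2 with BCL2L1 were among the partners contacted by the same family gene in both cell types. The 200 bases before the starts of BMF, BUB1B and BCL2L1 are given below, and no window is given for COX4I2. These 200 bases are only a part of the HindIII fragment on which they lie. BUB1B encodes a kinase of the mitotic checkpoint and COX4I2 a subunit of cytochrome c oxidase. Each window is written 5′ to 3′ along the gene, and none overlaps an annotated exon. Capitals mark, on either strand, the GC box GGGCGG, the CCAAT box, the E-box CACGTG and the TATA box TATAAA; no occurrences overlapped, and no E-box was found in these windows.
BMF, hg19 chr15:40401094-40401293, minus strand: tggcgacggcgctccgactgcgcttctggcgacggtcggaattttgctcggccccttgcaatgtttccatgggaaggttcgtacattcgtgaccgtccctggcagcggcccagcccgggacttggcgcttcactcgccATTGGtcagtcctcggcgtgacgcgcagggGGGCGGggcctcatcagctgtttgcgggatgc
Bmf, mm9 chr2:118375424-118375623, minus strand: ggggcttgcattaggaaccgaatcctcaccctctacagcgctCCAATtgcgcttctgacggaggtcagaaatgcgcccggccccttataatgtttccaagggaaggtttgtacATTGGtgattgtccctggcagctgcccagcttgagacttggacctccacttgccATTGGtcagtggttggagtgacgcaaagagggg
BUB1B, hg19 chr15:40453024-40453223, plus strand: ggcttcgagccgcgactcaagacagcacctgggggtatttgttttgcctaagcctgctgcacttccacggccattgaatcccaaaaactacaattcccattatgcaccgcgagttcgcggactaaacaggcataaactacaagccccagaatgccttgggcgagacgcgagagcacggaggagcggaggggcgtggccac
Bub1b, mm9 chr2:118423747-118423946, plus strand: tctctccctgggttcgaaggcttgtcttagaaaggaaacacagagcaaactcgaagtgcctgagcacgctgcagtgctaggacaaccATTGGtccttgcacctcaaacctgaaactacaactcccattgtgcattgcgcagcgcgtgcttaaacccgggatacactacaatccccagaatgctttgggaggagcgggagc
BCL2L1, hg19 chr20:30311793-30311992, minus strand: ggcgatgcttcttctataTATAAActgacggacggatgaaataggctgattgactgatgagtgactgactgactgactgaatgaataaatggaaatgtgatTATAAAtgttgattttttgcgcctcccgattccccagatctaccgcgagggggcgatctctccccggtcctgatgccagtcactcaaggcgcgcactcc
Bcl2l1, mm9 chr2:152657465-152657664, minus strand: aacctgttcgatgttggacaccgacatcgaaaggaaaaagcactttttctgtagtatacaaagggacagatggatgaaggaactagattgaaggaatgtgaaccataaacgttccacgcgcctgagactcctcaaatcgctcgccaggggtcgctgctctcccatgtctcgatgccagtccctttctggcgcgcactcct

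The BMF windows held 1 CCAAT box in human and 3 in mouse, and the human window also held 1 GC box. The BUB1B windows held no listed motif in human and 1 CCAAT box in mouse. The human BCL2L1 window carried 2 TATA boxes and the mouse window none of the 4 motifs. For comparison, windows were taken before all protein-coding genes on the chromosomes that carry family genes, with mouse chromosome 14 added. The GC box occurred in 48.5% of 6696 human and 36.4% of 9744 mouse windows, and the CCAAT box in 29.5% and 30.1%. The E-box occurred in 5.84% and 5.20%, and the TATA box in 6.71% and 10.3%. Human and mouse windows were identical at 59.4% of aligned positions for BMF, 54.6% for BUB1B and 59.9% for BCL2L1. The same measure over 3061 genes of these chromosomes with 1 symbol in both species had a median of 47.9% and quartiles of 44.9% and 53.4%. A motif match is a description of the letters, not a bound site.

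Calls were spread unevenly over the family, and the order of the genes differed between the cell types. In GM12878 BCL2 had 40 calls, BMF 36, BCL2A1 23, BCL2L11 16, BCL2L1 9, BAX 6, PMAIP1 4, BBC3 2 and BIK 1. In mESCs BAX had 36 calls, BCL2 22, BCL2L1 and BCL2L11 10 each, BMF 9, BIK 7, PMAIP1 2 and MCL1 1. A pair of baits listed from each end counts as 2 calls, and with each pair once BAX had 23 and BCL2 20 in mESCs, while with the gene at the bait alone both had 17. Human MCL1, mouse Bbc3 and mouse BCL2A1 were named in no call. Among all protein-coding symbols found in both annotations, 76.9% had a call in GM12878, 72.1% in mESCs and 57.6% in both, against 8, 8 and 7 of the 9 family symbols found in both. Of these 9, 5 had more calls in GM12878 (48.4% of all symbols with a call) and 4 more in mESCs (45.8%). MCL1 is among the 4, although its unnamed start fragments had 10 calls in GM12878. BBC3 is among the 5, although the mouse fragment with its start, listed under Ccdc9, had 13 calls in mESCs.

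**Figure D1:**
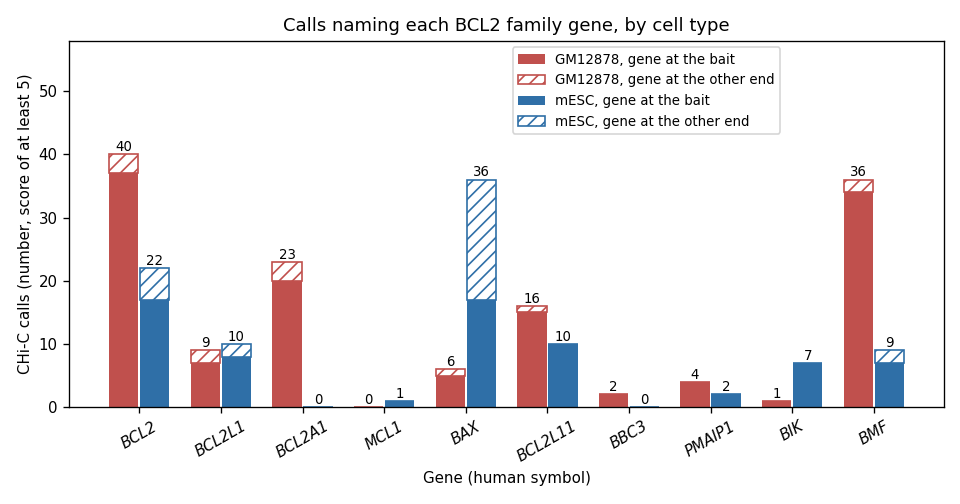
Number of CHi-C calls (y axis, score of at least 5) naming each gene (x axis) in GM12878 (red) and mESCs (blue), with the gene at the bait (filled) or at the other end (hatched). BCL2 and BMF were highest in GM12878 with 40 and 36 calls, and BAX had 36 in mESCs, of which 17 were from its bait.

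Baits with a call numbered 15389 in GM12878 and 16265 in mESCs, with a median of 3 calls each. Counted as baits, 98.7% of GM12878 baits had fewer calls than BCL2, 98.4% fewer than BMF, 93.9% fewer than BCL2A1 and 90.1% fewer than BCL2L11. In mESCs the corresponding values were 91.8% for both BCL2 and BAX, 81.1% for BCL2L11, 75.2% for BCL2L1 and 70.9% for BMF and BIK. The bait of BMF thus stood near the top in GM12878 and much lower in mESCs, while BAX went from 61.6% in GM12878 to 91.8%. BIK had the lowest possible count in GM12878.

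Pooled over the family, the median distance of calls was below that of all calls in GM12878 and above it in mESCs. The median distance between fragment midpoints was 115 kb in GM12878 (95% interval 88.9 to 154 kb, n = 137 calls) beside 174 kb over all calls on 1 chromosome. In mESCs it was 201 kb (174 to 236 kb, n = 95) beside 139 kb. The GM12878 value fell to 82.4 kb without BCL2, whose calls were long, and the mESC value was 195 kb without BCL2 or without BAX. BMF supplied 36 of the 137 GM12878 calls, with a median of 72.3 kb. The pooled GM12878 median without BMF was not computed, so the low value may rest largely on that gene. By gene, GM12878 medians exceeded 174 kb for BCL2 (208 kb), BCL2L11 and BIK (310 kb each) and lay below it for the other genes with a call. Among mESC genes with a call, only MCL1, at 30.3 kb, lay below 139 kb. A score of at least 10 was reached by 27.0% of the family's calls in GM12878 (Wilson 95% interval 20.3 to 35.0%) beside 16.3% of all calls, and BCL2 and BMF supplied most of them. Without these genes it was 7 of 61 (11.5%, 5.67 to 21.8%). In mESCs the share was 25.8% (18.1 to 35.3%) beside 16.9%. Without BCL2 and BMF it was 15 of 66 there (22.7%, 14.3 to 34.2%), an interval that holds 16.9%. These intervals and those below cover counting error only, and calls to neighbouring fragments are not independent of each other.

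The kind of fragment contacted differed between the lists. Calls between baits made up 15.3% of family calls in GM12878 (10.2 to 22.3%) beside 29.4% of all calls, but 68.0% in mESCs (58.2 to 76.5%) beside 36.3%. A family gene at the other end always adds a call of this kind, and with the gene at the bait alone the shares were 7.20% (3.83 to 13.1%) and 55.1% (43.4 to 66.2%). BAX alone gave 32 of the 66 mESC calls of this kind, and without BAX the share was 55.7% (43.3 to 67.5%). Of the 133 distinct fragments contacted in GM12878, 25 held an annotated gene start, 23 an exon without a start, 40 an intron, 9 a noncoding gene alone and 36 no annotated gene. The 25 include fragments with further annotated starts of BCL2 and BCL2L1 themselves. In mESCs 42 of 78 held a start and 11 no annotated gene.

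Among the survival genes, BCL2 made a one-sided field of contacts in both cell types. In GM12878 all 37 calls from its bait (hg19 chr18:60982875-60990419, the fragment with the gene's 5′ start on the minus strand) pointed downstream, into and past the gene. Among baits with 1 protein-coding symbol and at least 10 calls, 22.2% in GM12878 and 9.69% in mESCs had every call on a single side. Read counts of the 40 calls ran from 10 to 32 with a median of 15.0, and scores from 5.19 to 22.6. No fragment nearer than 85.5 kb was called from the bait. The highest score and the most reads fell on chr18:60825893-60831308, inside the BCL2 gene body 158 kb from the bait, with 32 reads and a score of 22.6. That fragment also holds an annotated start of BCL2 other than the one at the bait. Next came chr18:60815308-60823895 with 27 reads and 18.9, and chr18:60801035-60806238, which holds another such start, with 25 reads and 17.8. These belonged to an unbroken run of 9 called HindIII fragments, 39.6 kb long, toward the 3′ end of the gene.

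Past the gene's end the contacts went on as a looser series. Of the 39 fragments joined to BCL2 in GM12878, 15 overlapped its own 197-kb body, 22 lay beyond its 3′ end in sequence without an annotated gene, and 2 lay upstream. The farthest, chr18:60650094-60651964, was 336 kb away with 10 reads and a score of 6.37. Within the 255 kb spanned by the bait's calls, 37 of 72 fragments (51.4%) were called. A second high point stood at chr18:60682522-60683752, 304 kb from the bait, with 18 reads and a score of 15.1. The upstream contacts were KDSR, an enzyme of sphingolipid synthesis, with 15 reads and a score of 6.63 at 43.6 kb, and VPS4B, an ATPase of membrane scission, with 14 reads and 7.58 at 104 kb. Both were called from the partner's bait alone. The bait sharing most other ends with BCL2 carried the small RNA annotation snoU13 within the gene body and shared 3.

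In mESCs the calls of Bcl2 lay mostly around and past the 3′ end of the gene. All 17 calls from its bait (mm9 chr1:108610084-108613988) were downstream, and they covered 17 of the 168 fragments (10.1%) in a 516-kb span. The highest score, 20.0 on 21 reads, joined Bcl2 to the D630008O14Rik bait at 174 kb, inside the last part of Bcl2, whereas the same pair scored 7.78 from the Bcl2 side. Kdsr gave 27 reads and a score of 19.3 at 44.3 kb upstream. From the Bcl2 bait itself the best fragment was chr1:108439386-108441920, with 27 reads, a score of 17.3 and a distance of 171 kb. Of 20 contacted fragments, 4 overlapped the gene body, 14 lay past its end and 2 upstream. The longest contact was with Zcchc2, at 725 kb with 7 reads and a score of 6.21. Phlpp1, a phosphatase gene 543 kb downstream, was called from both sides with 14 reads and scores of 9.05 and 9.22, and its bait shared 3 other ends with that of Bcl2.

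**Figure D2:**
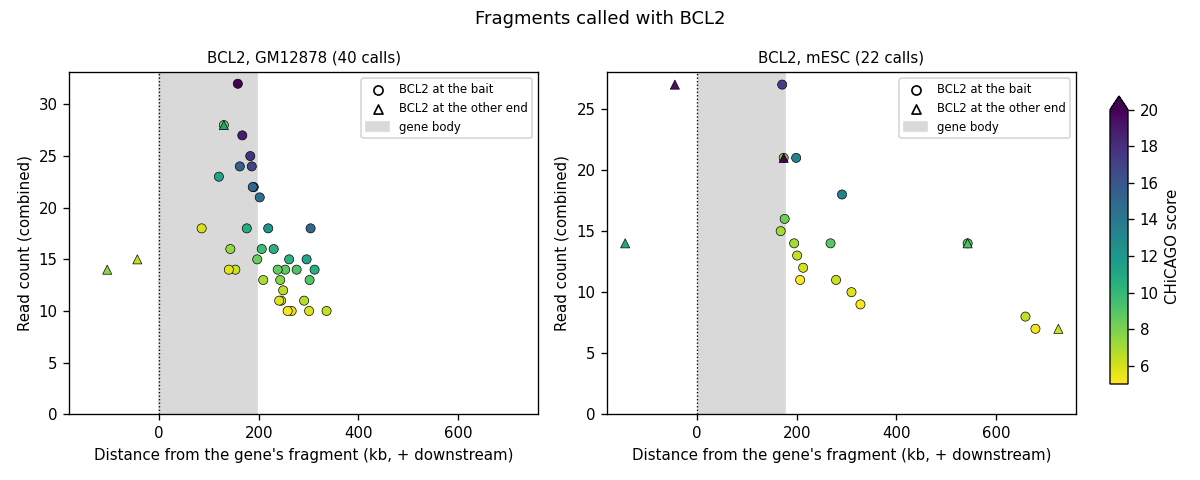
Read count (y axis) of each fragment called with BCL2 against its distance from the BCL2 fragment (x axis, kb, positive along transcription) in GM12878 and mESCs, coloured by CHiCAGO score, with the gene body shaded and circles and triangles for calls with BCL2 at the bait or at the other end; y axes differ. In both panels every call from the BCL2 bait lies downstream, and GM12878 shows a peak of 32 reads inside the gene.

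BCL2L1 contacts were also mostly downstream in both cell types. In GM12878 its 9 calls had 10 to 30 reads, scores of 5.39 to 12.2 and a median distance of 69.7 kb. The best was chr20:30245730-30247289, which lies just past the 3′ end of the gene and holds no annotated gene, with 17 reads and a score of 12.2. COX4I2 followed with 20 reads at 88.9 kb, scoring 12.0 from BCL2L1 and 5.66 from COX4I2. The most reads, 30, lay only 7.21 kb away inside BCL2L1, on a fragment with a further annotated start of BCL2L1, with a score of 7.68. The longest, to the fragment named HM13-AS1, had 12 reads and a score of 6.34 at 147 kb. The bait of TPX2, a spindle assembly gene, shared 2 other ends with that of BCL2L1.

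In mESCs the best Bcl2l1 call had the highest score among the calls of these 10 genes. H13, the mouse HM13 gene for signal peptide peptidase, was joined to Bcl2l1 by 21 reads at 169 kb with a score of 35.6 from the Bcl2l1 bait. The same pair scored 7.71 from the H13 bait, a ratio of 4.62. Mcts2, a gene that lies within H13, showed the same order, with 15 reads and scores of 22.5 and 7.47. Id1, an inhibitor of basic helix-loop-helix factors, had 10 reads and a score of 11.9. Tpx2, the nearest at 9.41 kb, had the most reads, 22, and a score of 8.17. Cox4i2 was called with 7 reads and 6.71 at 86.8 kb, close to its human distance. Defb45 was the farthest at 239 kb with 5 reads and 6.40. All 8 contacted fragments held an annotated gene start. The bait named AL731857.1 shared 5 other ends with Bcl2l1.

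BCL2A1 had 23 calls in GM12878 from chr15:80256992-80274822, with 8 bait calls upstream and 12 downstream. The highest score was 11.9 on 18 reads with FAH, an enzyme of tyrosine breakdown, 177 kb upstream, called from the FAH bait. The next was chr15:80184880-80187678 in an intron of MTHFS with 37 reads and 11.0, within a run of 5 called fragments that spanned 19.8 kb. An intronic fragment of ZFAND6 gave 32 reads and 9.96. The most reads, 59, came from a fragment 10.5 kb away and gave a score of only 5.02. The longest contact, in TMED3, was 616 kb away with 9 reads and 5.32. ZFAND6 itself was called from both ends with 51 reads and scores of 5.52 and 6.31, and its bait shared 8 other ends with that of BCL2A1 (Jaccard index 0.286). The mouse annotation holds Bcl2a1a, Bcl2a1b, Bcl2a1c and Bcl2a1d in place of a single gene, and none was named in a mESC call.

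For MCL1 the count depended on which fragments were named. In mESCs Mcl1 had 1 call, to Adamtsl4 at 30.3 kb with 23 reads and a score of 5.45. No human call named MCL1, yet both HindIII fragments with its annotated starts were listed as unnamed other ends. The fragment hg19 chr1:150549371-150560129 took part in 6 calls with 9 to 41 reads, the best from the ADAMTSL4 bait with 41 reads and 16.2. The fragment chr1:150545578-150547832 took part in 4, the best again from ADAMTSL4 with 44 reads and 15.8. Neither was listed as a bait.

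BAX, the effector, had more calls in mESCs than in GM12878, also with each pair counted once. In GM12878 its 6 calls had 9 to 70 reads. The best joined it to a fragment that holds the starts of NUCB1 and TULP2, 61.0 kb upstream, with 41 reads and a score of 12.3. FTL, the ferritin light chain gene 10.9 kb downstream, had the most reads, 70, and 8.08, and a second fragment of NUCB1 gave 41 reads and 7.99. The longest lay 169 kb upstream with 10 reads and 6.85. The bait of CA11, DBP and SEC1P shared 3 of the 5 other ends of BAX.

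In mESCs Bax was joined to 23 fragments, 18 upstream and 5 past its end, with 7 to 25 reads and a median distance of 233 kb. The highest scores came from Mamstr, a coactivator of MEF2 factors, with 24 reads, 13.6 and 174 kb, and from the ribosomal protein gene Rpl18 with 20 reads, 13.3 and 252 kb. Mir150 on the opposite side gave 15 reads and 10.6 at 344 kb. The most reads, 25, joined it to Gm16022 at 89.7 kb with a score of 10.2 from the Gm16022 side, and the longest contact was Grwd1 at 368 kb with 11 reads and 7.87. Tulp2 was called from its own bait with 23 reads and 7.38 at 19.9 kb. The bait of Ftl1, which adjoins that of Bax, shared 9 other ends with it (Jaccard index 0.310).

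Of the family calls compared with Hi-C, those of Bax alone fell within listed bin pairs at the stated threshold. Hi-C from the same cell type, in 25-kb bins, was compared for calls under 1 Mb by asking whether both fragment midpoints fell in a bin pair with a false discovery rate (FDR) under 0.05. This held for 15 of 36 Bax calls (41.7%, 27.1 to 57.8%) and for 0 of 59 calls of the other family genes. Over the family it was 15 of 95 (15.8%, 9.81 to 24.4%) beside 11.6% of all calls under 1 Mb. The 15 calls covered 9 distinct fragments in 3 bin pairs. The bin pair reaching Rpl18, Dbp and Car11 had 16 read pairs where 2.35 were expected (FDR 0.00068), that reaching Bcat2 had 20 where 4.81 were expected (FDR 0.015), and that reaching Mir150 and Snord35a had 12 where 1.79 were expected (FDR 0.032). Among bin pairs listed at any FDR, 4 of 10 Bcl2l1 calls and 2 of 10 Bcl2l11 calls were also found.

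**Figure D3:**
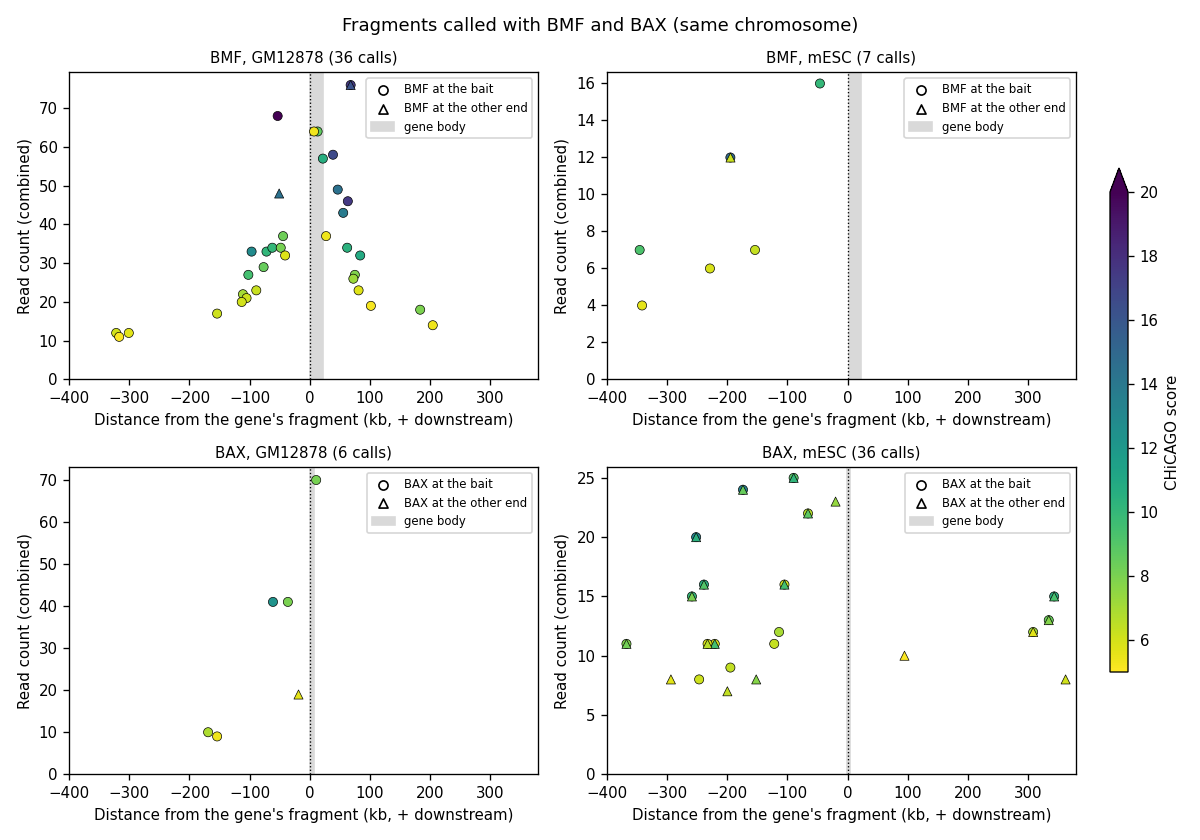
Read count (y axis) against distance from the gene's fragment (x axis, kb, positive along transcription) for calls of BMF and BAX on their own chromosome in GM12878 and mESCs, coloured by CHiCAGO score, with the gene body shaded; y axes differ. BMF has 36 calls on both sides in GM12878 and 7 on the upstream side in mESCs, while BAX goes from 6 to 36, pairs listed from both ends included.

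Among the BH3-only genes, BMF carried the strongest contacts in GM12878. Its bait, hg19 chr15:40399328-40405534, had 17 calls upstream and 17 downstream, and its 36 calls had 11 to 76 reads with a median of 32.5. The highest score was 26.6 on 68 reads, at chr15:40454179-40457099 in an intron of BUB1B, 53.2 kb upstream. The adjoining fragment with the BUB1B start was called from the BUB1B bait, with 48 reads and a score of 14.4 at 50.7 kb. Downstream, a fragment next to SRP14 gave 46 reads and 17.5, and SRP14, a subunit of the signal recognition particle, gave the most reads, 76, with scores of 17.4 and 16.2 from its 2 ends. The longest contact, 322 kb away in IVD, had 12 reads and 6.04. The SRP14 bait shared 19 other ends with that of BMF (Jaccard index 0.311), the largest number for any family gene. The Jaccard index was higher for some other family genes, among them BAX in GM12878 (0.429) and Bik in mESCs (0.556).

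In mESCs Bmf kept the upstream side alone. Its 6 bait calls on its own chromosome were all upstream, none downstream, with 4 to 16 reads. Bub1b had the most reads, 16, and a score of 10.0 at 45.9 kb. The noncoding 5430417L22Rik gave 12 reads and scores of 14.9 from Bmf and 6.18 from its own bait, at 195 kb. Bahd1 was the farthest, with 7 reads and 9.24 at 346 kb. The bait of Pak6 shared 5 other ends with Bmf. BUB1B was thus upstream of BMF within the same distance range in both species, with 48 and 16 reads between the gene starts.

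BCL2L11 made long contacts to both sides in GM12878 and mainly downstream ones in mESCs. In GM12878, 8 of its 15 bait calls lay upstream in ACOXL, an acyl-CoA oxidase-like gene, led by chr2:111610615-111615829 with 20 reads, a score of 16.4 and a distance of 265 kb. The next were chr2:111574535-111583733 with 15 reads and 11.3, and chr2:111560129-111570604 with 13 reads and 9.44. The most reads, 50, fell 8.09 kb away, with a score of 5.77. Another 6 of the 7 downstream calls lay 516 to 594 kb away in ANAPC1, a subunit gene of the anaphase-promoting complex, with 7 to 9 reads and scores of 5.06 to 7.69. No other bait shared an other end with BCL2L11 in GM12878. In mESCs 9 of 10 calls were downstream at 114 to 279 kb, with 8 to 10 reads. The best was the single upstream call, within Acoxl at 236 kb, with 13 reads and 9.11. It was named AL844481.1, and its own bait shared 5 other ends with Bcl2l11.

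**Figure D4:**
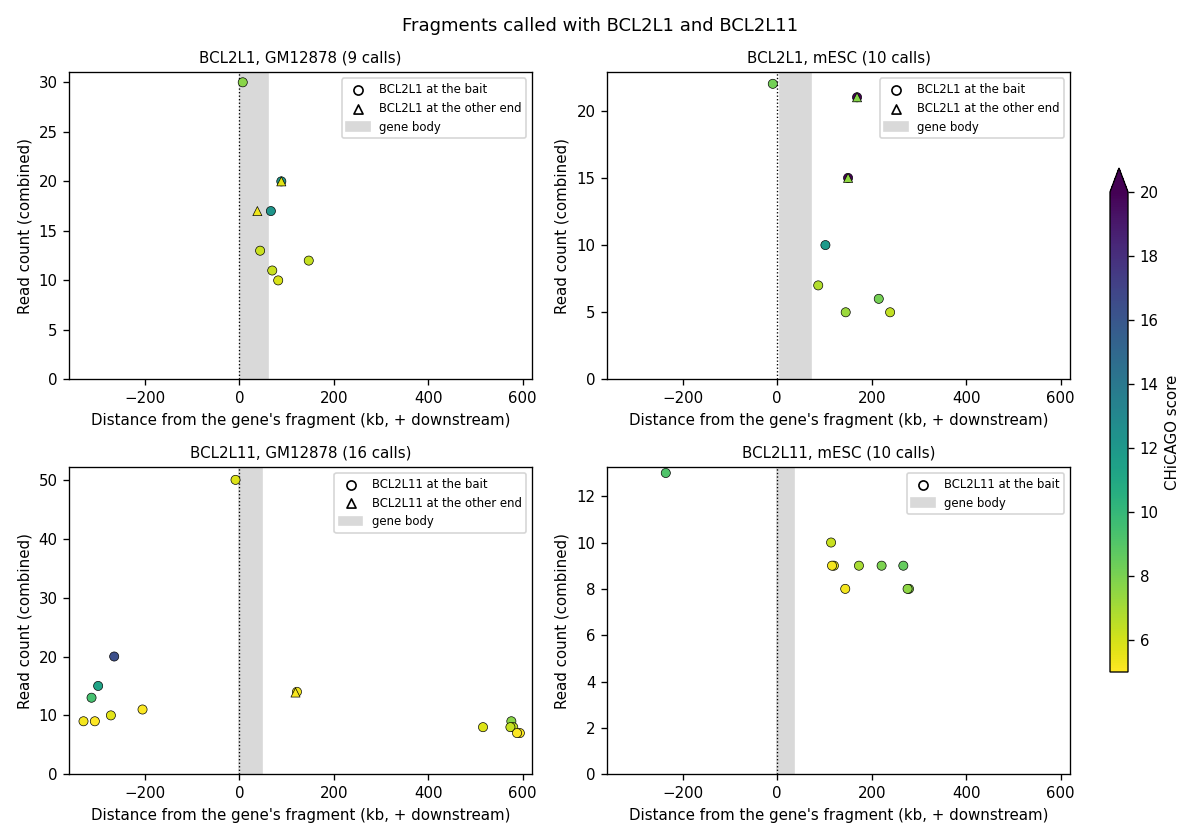
Read count (y axis) against distance from the gene's fragment (x axis, kb, positive along transcription) for calls of BCL2L1 and BCL2L11 in GM12878 and mESCs, coloured by CHiCAGO score, with the gene body shaded; y axes differ. BCL2L11 in GM12878 shows an upstream group led by 20 reads at 265 kb and a downstream group from 516 to 594 kb that mESCs lack at this threshold.

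The remaining BH3-only genes had few calls. BIK had 1 in GM12878, in an exon of ARFGAP3 at 310 kb with 7 reads and a score of 5.33. In mESCs Bik had 7, led by Tspo, an outer mitochondrial membrane protein gene 30.1 kb away, with 20 reads and 17.8. Arfgap3 followed with 9 reads and 13.6 at 181 kb, and Mcat with 17 reads and 12.7. A4galt was the farthest at 278 kb with 6 reads and 10.1. All 7 were between baits, and the bait of Ttll1 shared 5 of the 7 other ends (Jaccard index 0.556). PMAIP1 in GM12878 had 4 calls of 23 to 37 reads, 15.9 to 55.4 kb away, all on fragments without an annotated gene. The best stood 21.4 kb upstream with 37 reads and 9.74. Mouse Pmaip1 had 2 calls, to an exon of Rax at 526 kb with 5 reads and 6.21, and to the fragment named Mir694 at 237 kb with 8 reads and 6.03.

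BBC3 was named in GM12878 alone. Both of its calls lay in SAE1, a SUMO-activating enzyme gene, with 27 reads and 6.08 at 107 kb, and with 15 reads and 5.64 at 84.8 kb. Its bait fragment also carried CCDC9 and MIR3191. In mESCs the fragment with the annotated Bbc3 start, mm9 chr7:16862278-16901333, was listed under Ccdc9. It took part in 10 calls as bait and 3 as other end, the best with Snord23, with 8 reads and a score of 13.7. These calls cannot be assigned to Bbc3 or Ccdc9, since a 39056-bp fragment holds both. The same limit applies to the 2 GM12878 calls, whose 35553-bp bait fragment carries both names.

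The downstream lean of the pooled GM12878 calls came largely from BCL2. From the baits of the family genes in GM12878, 84 of 125 calls (67.2%, 58.6 to 74.8%) lay downstream of the gene start. Over all baits with 1 protein-coding symbol it was 50.3%. Without BCL2 the family's share was 47 of 88 (53.4%, 43.1 to 63.5%). In mESCs the share was 40 of 68 (58.8%, 47.0 to 69.7%), an interval that holds the 51.6% of such baits. Without BCL2 it was 23 of 51 (45.1%, 32.3 to 58.6%). Downstream bait calls outnumbered upstream ones there for BCL2, BCL2L1, BCL2L11 and MCL1, and the reverse held for BAX, BMF, BIK and PMAIP1. Called fragments also adjoined each other in GM12878, where 82 of 125 (65.6%, 56.9 to 73.4%) were next to another fragment called from the same bait, beside 38.4% over all calls. In mESCs this was 27 of 69 (39.1%, 28.5 to 50.9%) beside 36.2%. Counted over all partners, 31 of 39 for BCL2 and 27 of 35 for BMF adjoined another partner in GM12878. The numbers were 15 of 22 for BCL2A1, 9 of 16 for BCL2L11, 4 of 8 for BCL2L1 and 2 of 4 for PMAIP1. For BAX it was 2 of 6, and for BBC3 and BIK 0. The pooled share without BCL2 and BMF was not computed.

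Partners named with the same family gene in both cell types numbered 4, namely TULP2 with BAX, KDSR with BCL2, COX4I2 with BCL2L1 and BUB1B with BMF. KDSR stood 43.6 kb from BCL2 in GM12878 and 44.3 kb in mESCs, on the upstream side in both. With partners taken from the annotated gene bodies, BCAT2 and DHDH with BAX, ACOXL with BCL2L11 and ARFGAP3 with BIK were added, giving 8. These partners are chromosomal neighbours of the family genes in both genomes.

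A pair between baits can be scored from each end. Its reads were equal from both ends in 4225 of 4262 such pairs in GM12878 and 7670 of 7691 in mESCs. The family had 4 such pairs in GM12878 with a median ratio of the larger to the smaller score of 1.32, beside 1.40 over 4262 pairs. In mESCs it had 19 with a median of 1.25, beside 1.31 over 7691. The largest family ratios were 2.13, for BCL2L1 and COX4I2 in GM12878, and 4.62, for Bcl2l1 and H13.

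**Figure D5:**
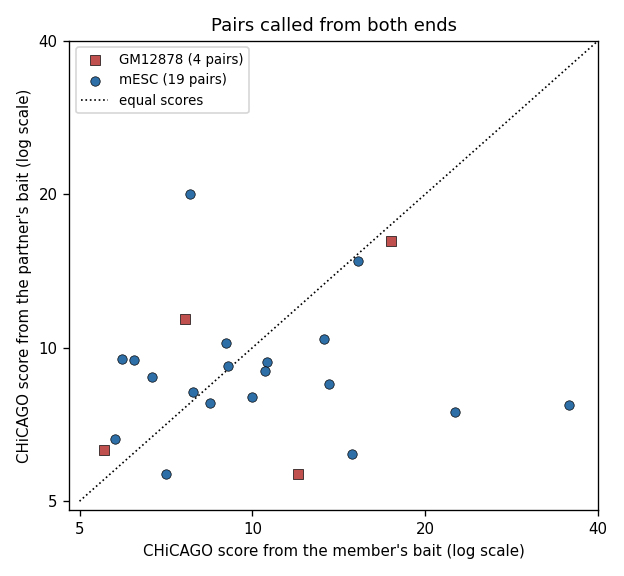
CHiCAGO score of each pair called from both ends, from the family gene's bait (x axis, log scale) and from the partner's bait (y axis, log scale), in GM12878 (squares, 4 pairs) and mESCs (circles, 19 pairs); the dotted line marks equal scores. The point farthest to the right is Bcl2l1 with H13, at 35.6 and 7.71.

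Other genes of the family and of mitochondrial apoptosis were counted in the same way, by symbol alone. Unlike for MCL1 and BBC3, the fragments with their gene starts were not looked up. A gene named in no call may therefore lie on a called fragment that is unnamed or listed under another gene. In GM12878 21 of 23 annotated genes had a call, beside the 76.9% of protein-coding symbols given above. In mESCs 13 of 27 had a call, or 13 of 23 without the 4 Bcl2a1 copies, beside 72.1%. CASP8, which encodes an initiator caspase, was named in 17 calls in GM12878 and in none in mESCs. APAF1, the apoptosome scaffold, had 16 and 2, and BAK1, the other main effector, 10 and 1. Hrk, a BH3-only gene, went the other way, with none in GM12878 and 35 in mESCs, the best with a score of 122 and the most reads 68.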

How the data were processed

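Promoter CHi-C was measured in 3 GM12878 and 2 mESC libraries, and Hi-C in 1 mESC library. Per the labels and the study's methods, reads were mapped with HiCUP to hg19 or mm9 and the replicates of a cell type were called together with CHiCAGO. The submitters' processing notes name Bowtie 1.1.0 and HOMER 4.7. The deposited read count of a pair is combined over replicates with weights and rounded, and the deposited score is the CHiCAGO score of at least 5. For Hi-C bin pairs the authors deposited the read count, the expected signal in reads and a p-value adjusted by HOMER.

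Calls were read as pairs of lines, bait then other end. Symbols were split at semicolons, commas and vertical bars, since the mouse list uses the latter marks, and transcript suffixes were removed. A pair of baits listed from each end counted as 2 calls. Distances ran between fragment midpoints, and direction followed the annotated strand. Bait-to-bait means that the other end is itself listed as a bait or named. Every listed fragment on the chromosomes of family genes and on mouse chromosome 14 (18204 human, 22195 mouse) matched a HindIII fragment of the reference genome. Partners named are those with the 3 highest scores, the most reads or the longest distance per gene and cell type, those shared by both cell types, and the bait sharing most other ends. VPS4B, Phlpp1, Dbp, Car11, Bcat2, Snord35a and some further high points were named after their values were seen. The genes and lists were chosen with earlier results of these data known. Shares carry Wilson 95% intervals, medians binomial ones. No test was run, as pooled calls leave no replicate spread. Alignment used match 1, mismatch -1, gap opening -3 and extension -1. Computations used Python 3.11.15, NumPy 2.4.6, SciPy 1.17.1 and Biopython 1.88, tested on simulated data. Alternatives covered the score, the read count, the end, the naming of fragments, the distance and the Hi-C threshold. Some values of the gene lists are not reported here.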

Additional observations from a re-analysis of the deposited data

How the results depend on the processing

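No paired analysis was possible because the replicates of each cell type were pooled before calling. A score of at least 10 left 37 calls in GM12878 and 25 in mESCs, with a median of 1.5 per family gene in each, a mESC median distance of 174 kb, a mESC bait-to-bait share of 88.0% and 1 partner shared by both cell types. At least 10 reads left 63 calls in mESCs, with a median of 2.50 per gene. With the family gene at the bait alone, the bait-to-bait share was 7.20% in GM12878 and 55.1% in mESCs. Calls within a Hi-C bin pair were 7.37% at an FDR under 0.01 and 27.4% over every listed bin pair. Partners taken from gene bodies numbered 8. The following were chosen after seeing the data. Splitting symbols at semicolons alone left 32 mESC calls, a median of 0 per gene and a bait-to-bait share of 50.0%. Without BCL2 the median distance was 82.4 kb in GM12878 and the mESC bait-to-bait share 78.7%, and without BAX that share was 55.7%. Without BCL2 the downstream share was 53.4% in GM12878 and 45.1% in mESCs. Without BCL2 and BMF 11.5% of GM12878 calls scored at least 10. Of the values for single genes, 89 stayed within 1.5 times the reported count and 31 moved further, among them BAX in mESCs, with 23 calls when each pair counts once and 17 from its bait. The cause was not tested. Raw reads per library were not analysed here, so no count given here has a replicate error.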

Other observations

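The only calls of the family between chromosomes joined Bmf in mESCs to a fragment named SNORA17.274 on chromosome 14 (mm9 chr14:19636220-19648613), inside an intron of Ube2e2. The pair had 4 reads and scores of 15.3 from Bmf and 14.8 from the other bait. No listed Hi-C bin pair of 1 Mb covered it. That fragment had 4 call ends between chromosomes and 2 within its own, among them those with Bmf.

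The number of reads and the score ranked contacts differently for the nearest fragments. BMF and a fragment of its own body 7.30 kb away had 64 reads and a score of 5.35 in GM12878, whereas its contact with 46 reads at 63.6 kb scored 17.5.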
